A study of Solanum lycopersicum with 17 samples.

Results

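Ms10, Ms32 and AMS are 3 basic helix-loop-helix (bHLH) genes that regulate the tapetum, the layer of anther cells that feeds developing pollen and later breaks down. They were taken by identifier as Solyc02g079810 (Ms10, of the DYT1 type), Solyc01g081100 (Ms32, of the bHLH89/91 type) and Solyc08g062780 (AMS, named after ABORTED MICROSPORES of Arabidopsis), which makes 3 of the 34727 gene models in the tables. All 3 passed the filter on low counts and were among the 13568 genes tested. Their reads were counted in 17 RNA-seq libraries of whole floral buds of tomato, 9 from the male-sterile line ms1035 and 8 from the male-fertile line T-1082, at developmental stages that the labels number 1, 2 and 3 without defining them. Every group held 3 libraries except fertile buds of stage 1, with 2 (replicates 2 and 3). The name ms1035 is that of an allele of Ms10 in the tomato literature, and the labels do not say whether the lines share a genetic background, so sterility and other differences between the lines cannot be told apart. In RNA from whole buds, fewer cells of a type and less RNA per cell cannot be told apart either.

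In Arabidopsis, DYT1 acts early in the young tapetum and is needed for the expression of the MYB gene TDF1, which is needed in turn for AMS. AMS then works upstream of MYB80 and MS1, the regulators of pollen wall formation and of tapetum breakdown. bHLH89 and bHLH91 are not placed in this chain as a single step: their proteins bind DYT1 and AMS as partners and have overlapping functions. Loss of an early member of the chain leaves anthers without a working tapetum and without pollen.

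Libraries held 499608 to 817548 assigned reads, of which 98.7% to 99.5% were unique, so 3 reads in 1 library corresponded to 3.67 to 6.005 CPM (a gene's reads scaled to the assigned reads of its library). Genes of stamen and petal identity marked the samples as floral buds: TAG1 (Solyc02g071730), an AGAMOUS-type gene, had at least 152 CPM and TAP3 (Solyc04g081000), which specifies petals and stamens, at least 76.0 CPM in sterile buds of stage 1, the group lowest in both. Several libraries stood apart from their group. Fertile replicate 2 of stage 2 had a summed level of the 6 bud organ markers of 3035 CPM, against 1823 and 2014 in replicates 1 and 3 and 2529 to 3267 at stage 3. In the sterile line, replicate 3 had the lowest level of HYDRA (Solyc07g063670), a SPOROCYTELESS-type gene of early anther development, at stages 1 and 2.

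Ms10 was read almost only in fertile buds of stage 1. Fertile replicates 2 and 3 of that stage held 28 and 17 reads, or 37.3 and 28.5 CPM, and the 3 sterile libraries held 0 reads. The lines did not overlap. At stage 2, fertile replicate 3 and sterile replicate 2 held 2 reads each and the other 4 libraries held none. At stage 3 none of the 6 libraries had a read, which allowed up to 1.61 CPM over the fertile group and 1.79 CPM over the sterile group. Ms10 therefore had 47 reads in the fertile line, in 3 of 8 libraries, and 2 reads in the sterile line, in 1 of 9, all of them unique.

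AMS was the most abundant of the 3 genes in fertile buds. At stage 1 fertile replicates 2 and 3 held 387 and 248 reads, or 516 and 416 CPM. At stage 2 replicates 1, 2 and 3 held 331, 126 and 372 reads, or 429, 154 and 534 CPM. Replicates 1 and 3 were thus at the stage 1 level, and replicate 2 was well below it. At stage 3 the replicates held 126, 14 and 40 reads, or 161, 28.0 and 69.3 CPM, and the 161 CPM of replicate 1 was close to the 154 CPM of replicate 2 at stage 2. The 9 sterile libraries held 2 AMS reads in all, in replicate 1 of stage 2 and in replicate 1 of stage 3. No sterile library reached the lowest fertile one at any stage.

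Ms32 was the only one of the 3 genes with more than 2 reads in sterile buds. Fertile replicates 2 and 3 of stage 1 were close to each other, with 90 and 73 reads, or 120.0 and 122.5 CPM. At stage 2 the fertile replicates 1, 2 and 3 had 33.7, 13.5 and 79.0 CPM, and at stage 3 they had 12.8, 4.003 and 1.73 CPM. The level in these libraries was lower at each later stage, and the ranges of the 3 stages did not overlap. Of all tested genes, 17.3% had stage 2 below stage 1 without overlap, and 7.53% had stage 3 below stage 2. Neither step passed for Ms32 (edgeR adjusted p = 0.610 and 0.361), and the stage 3 values rest on 10, 2 and 1 reads. In sterile buds replicates 1, 2 and 3 held 19, 6 and 0 reads at stage 1, or 33.2, 7.86 and 0 CPM, and 8, 9 and 0 reads at stage 2, or 13.6, 11.9 and 0 CPM. All 3 sterile libraries of stage 3 held 0 reads. Sterile replicate 3 thus lacked Ms32 reads at every stage, which allowed up to 4.87 CPM at stage 1 and 5.47 CPM at stage 2. HYDRA stood in the same sterile libraries at 10.48, 14.4 and 1.62 CPM at stage 1 and at 15.3, 7.94 and 3.64 CPM at stage 2, lowest in replicate 3 as well. Whether replicate 3 was sampled at another point of development was not tested.

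**Figure D1:**
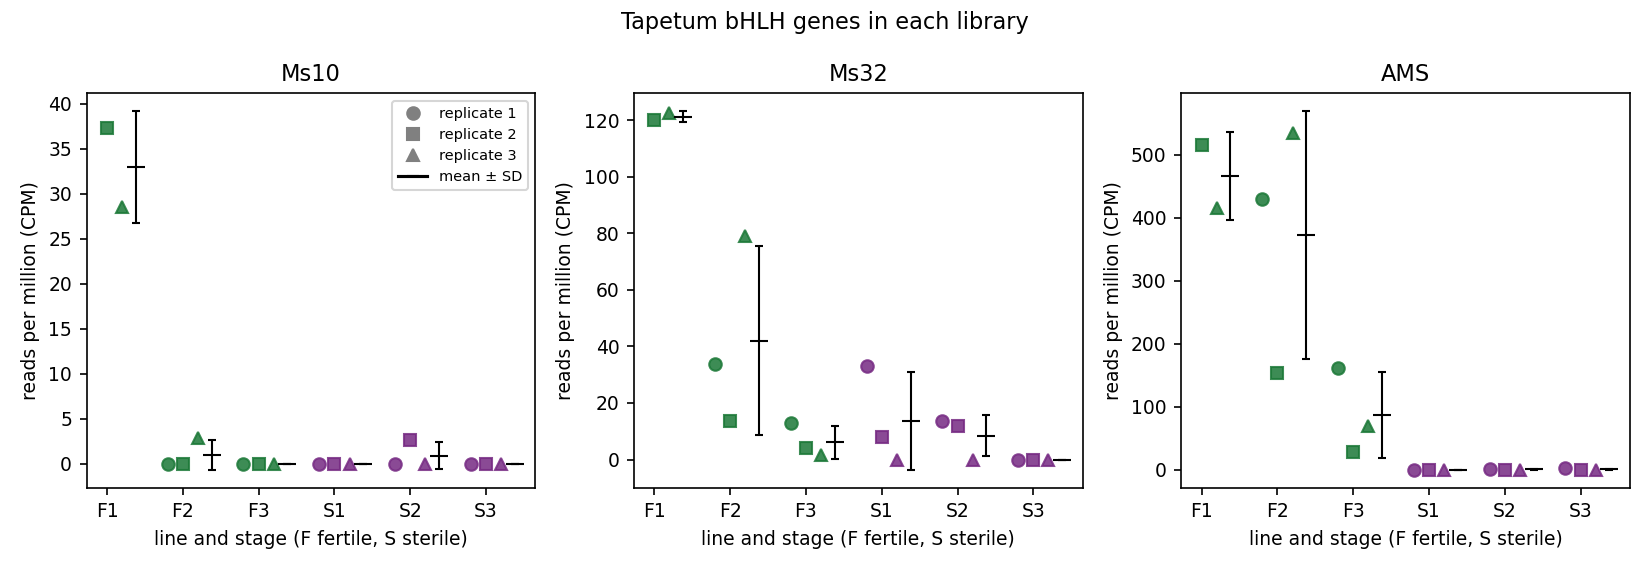
CPM of Ms10, Ms32 and AMS in each of the 17 libraries, by line and stage, with the mean and SD of each group as a black mark and bar (F, fertile, green; S, sterile, purple; the symbol gives the replicate number). Ms10 stands at 28.5 and 37.3 CPM in the stage 1 fertile libraries and at most at 2.87 CPM elsewhere, AMS reaches 534 CPM in fertile buds and 1.83 CPM in sterile ones, and Ms32 reaches 33.2 CPM in sterile buds.

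The comparison of the lines at stage 1 asks which genes differ at the earliest stage sampled. Sterile buds had at least 21.8-fold less Ms10, computed with 3 reads in place of the 0 over the sterile group (edgeR quasi-likelihood test, adjusted p = 0.0382). AMS was at least 307-fold lower by the same limit, with 466 ± 70.5 CPM (mean ± SD, n = 2) in fertile buds (edgeR adjusted p = 0.000166). Ms32 stood at 121 ± 1.80 CPM (n = 2) in fertile and 13.7 ± 17.3 CPM (n = 3) in sterile buds, which is -3.24 (SE 0.85) on the log2 scale, and did not pass over all genes (edgeR adjusted p = 0.0856), although the lines did not overlap. Thus 2 of the 3 genes were called, both lower, where 1.16% of all tested genes were called, 1.09% lower, and 12.4% had every sterile library below both fertile ones. The 3 genes were chosen with earlier results of these data known. Their counts of calls, here and in the later comparisons, are therefore no independent evidence. The Ms10 call was lost when any of the 5 libraries of stage 1 was left out, when sterile replicate 2 of stage 2 was left out (edgeR adjusted p = 0.0557), and without all libraries numbered 3 (edgeR adjusted p = 0.162). Ms32 passed without sterile replicate 1 of stage 1 or fertile replicate 2 of stage 2 (edgeR adjusted p = 0.0464 and 0.0488).

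At stage 2 AMS alone among the 3 was called. It had 373 ± 196 CPM (n = 3) in fertile buds against 1 sterile read, a ratio of summed reads of 687 (exact 95% binomial interval 122.97 to 2.72e+04, edgeR adjusted p = 0.000247), and it stayed called when any single library was left out. Ms32 had 42.1 ± 33.5 CPM in fertile and 8.497 ± 7.405 CPM in sterile buds (3 libraries a group). On the log2 scale this was -2.30 (SE 0.88; edgeR adjusted p = 0.203), and the lines overlapped, since fertile replicate 2 at 13.5 CPM lay just below sterile replicate 1 at 13.6 CPM. Of all tested genes, 2.83% were called at this stage, 2.23% lower, and 8.65% had every sterile library below every fertile one, as AMS did. Ms10, with 2 reads in each line, allowed no fold to be given.

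At stage 3 AMS was again the only one of the 3 genes called. It had 86.1 ± 68.1 CPM (n = 3) in fertile buds against 1 sterile read, a ratio of 162 (exact 95% binomial interval 28.8 to 6446, edgeR adjusted p = 0.00804). The call was lost without sterile replicate 2 of stage 3 (edgeR adjusted p = 0.0610) and without all libraries numbered 3 (edgeR adjusted p = 0.0947). Ms32 had 13 fertile reads and 0 sterile reads, at least 3.91-fold lower, and did not pass (edgeR adjusted p = 0.472). Neither gene overlapped between the lines. Of all tested genes, 0.737% were called here, 0.568% lower, and 7.65% had every sterile library below every fertile one. All intervals and limits given cover counting error alone.

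Averaged over the 3 stages, the line difference passed for AMS (edgeR adjusted p = 5.83e-07) and for Ms32 (edgeR adjusted p = 0.0130), both lower in sterile buds, where 9.74% of all tested genes were called, 6.25% lower. No averaged fold is given, because both genes have a sterile group without reads, and Ms10 could not be averaged, because neither line had reads at stage 3. The Ms32 call was lost without fertile replicate 1 of stage 3 (edgeR adjusted p = 0.110). The averaged comparison treats the libraries of the 3 stages as independent. Same-numbered libraries of a line varied together between stages, with a median residual correlation of 0.357 in sterile and 0.278 in fertile buds. The p-values averaged over the stages may therefore be too small. A test of whether the line difference depended on stage gave an adjusted p of 1 for each of the 3 genes in edgeR. The unadjusted edgeR p was 0.0529 for Ms10, 0.518 for Ms32 and 0.413 for AMS. Because neither line had Ms10 reads at stage 3, its line difference there was undefined, and its p is not interpreted. That test called 0 of the 13568 genes (a share of 0%) in edgeR, where 365 had an unadjusted p under 0.05, and 14 in DESeq2.

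Some petal and stamen markers also differed between the lines. Of the 6 bud organ markers, 2 were called lower in sterile buds at stage 2 and 0 at stages 1 and 3. Among all tested genes, 1.09%, 2.23% and 0.568% were called lower at stages 1, 2 and 3. The summed level of the markers at stage 2 was 1194 ± 244 CPM in sterile against 2291 ± 651 CPM in fertile buds (n = 3 each). TAGL1 (Solyc07g055920), a stamen and carpel gene, and MC (Solyc05g056620), a sepal gene, stood at log2 differences of 0.05 and 0.01 at stage 2. The 2 called were TAG1 and the PISTILLATA-type gene Solyc08g067230. Leaving out sterile replicate 1, sterile replicate 2 or fertile replicate 2 of stage 2 ended both calls, as did a fit of only the groups compared (edgeR adjusted p = 0.102 and 0.0685). The libraries left out gave edgeR adjusted p of up to 0.139 for TAG1 and 0.120 for Solyc08g067230, and the second call also ended without sterile replicate 3 (edgeR adjusted p = 0.0517) and without all libraries numbered 3 (edgeR adjusted p = 0.103). At stage 1 the summed levels were 832 ± 104 (n = 3) and 1127 ± 158 CPM (n = 2), and at stage 3 1471 ± 537 and 2969 ± 389 CPM (n = 3 each). Averaged over the stages, 3 of the 6 markers were called lower in sterile buds, where 6.25% of all tested genes were. These were TAP3, Solyc08g067230 and TAG1 (edgeR adjusted p = 0.00994, 0.00105 and 0.00154), with the limit given above for the averaged comparison. The part of the markers in the AMS and Ms32 differences was not tested. LAT52 (Solyc10g007270), a marker of late pollen, had 18 reads in fertile buds of stage 3 and 0 in sterile ones, and was below the filter on low counts.

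In fertile buds the 3 genes were lower at stage 3 than at stage 1, and none was called between neighbouring stages in the edgeR fit without pairing. With the replicate number as a block, AMS was called lower at stage 3 than at stage 2 (edgeR adjusted p = 0.0111). It was among 74 of the 13568 tested genes called lower there. From stage 1 to stage 3 Ms10 was at least 20.7-fold lower (edgeR adjusted p = 0.0192). Ms32 was 6.17 ± 5.84 CPM (n = 3) at stage 3 against 121 ± 1.80 CPM (n = 2) at stage 1, a difference of -4.02 on the log2 scale (SE 0.93; edgeR adjusted p = 0.0205). AMS had the smallest of these differences, with a log2 value of -2.29 (SE 0.56, edgeR adjusted p = 0.0274). All 3 genes were called and none overlapped between the stages, where 6.31% of all tested genes were called, 2.86% lower, and 23.8% had every stage 3 library below both stage 1 libraries. Each of the 3 calls was lost without fertile replicate 2 or 3 of stage 1, without fertile replicate 2 or 3 of stage 3, and without all libraries numbered 3, and the Ms32 call was also lost with DESeq2 (adjusted p = 0.0765). The largest edgeR adjusted p on leaving out 1 library was 0.099996 for Ms10, 0.0956 for Ms32 and 0.112 for AMS.

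Between stages 1 and 2 of fertile buds none of the 3 genes passed. The summed reads of Ms10 were 45 and 2, a ratio of 38.2 (exact 95% binomial interval 9.98 to 325), with an edgeR adjusted p of 0.149. Ms32 differed by -1.44 on the log2 scale (SE 0.75; edgeR adjusted p = 0.610) and AMS by -0.23 (SE 0.55, edgeR adjusted p = 0.962). Ms10 and Ms32 did not overlap between these stages and AMS did. Here 0.155% of all tested genes were called, 0.059% lower, and 17.3% had every stage 2 library below both stage 1 libraries. Between stages 2 and 3 the log2 difference was -2.58 (SE 0.92) for Ms32 and -2.07 (SE 0.53) for AMS, and neither passed (edgeR adjusted p = 0.361 and 0.145), where 0.236% of all tested genes were called, 0.162% lower. Ms32 did not overlap between these stages, as was so with stage 3 lower for 7.53% of all tested genes, and AMS overlapped. Same-numbered fertile libraries of these stages varied together, and with the replicate number as a block AMS passed as lower at stage 3 (edgeR adjusted p = 0.0111). It also passed without fertile replicate 2 of stage 2 or replicate 1 of stage 3 (edgeR adjusted p = 0.0379 and 0.0375), the 2 libraries with AMS levels of 154 and 161 CPM.

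In sterile buds Ms32 alone had enough reads to compare stages. From stage 1 to stage 2 its log2 difference was -0.50 (SE 1.01, edgeR adjusted p = 0.977), and from stage 2 to stage 3 it went from 17 reads to 0, at least 5.02-fold lower (edgeR adjusted p = 0.817). Ms32 overlapped in each comparison, while 8.04% and 5.06% of all tested genes had every library of the later stage below every one of the earlier. In each of these comparisons edgeR called 0% of the tested genes, with 927 and 782 at an unadjusted p under 0.05, and DESeq2 called 41 and 4.

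Levels of different genes were compared per length, as RPKM, which also divides the scaled reads by the coding length. AMS was above Ms32 in all 8 fertile libraries, and Ms32 was above Ms10 in the 5 of stages 1 and 2. At stage 3 Ms10 had no reads, and its limit of 3 reads, 9.53 and 8.24 RPKM in replicates 2 and 3, lay above the Ms32 levels there of 2.82 and 1.22 RPKM, so the order of these genes was not detectable in those libraries. At stage 1 AMS had 260 ± 39.3 RPKM, Ms32 85.3 ± 1.27 RPKM and Ms10 52.3 ± 9.87 RPKM (n = 2 each). At stage 2 AMS had 208 ± 110 RPKM and Ms32 29.6 ± 23.6 RPKM, and at stage 3 they had 48.1 ± 38.04 and 4.34 ± 4.11 RPKM (n = 3 each). In the sterile libraries that held Ms32 reads, Ms32 was above AMS. Replicates 1 and 2 of stage 1 had 23.3 and 5.53 RPKM of Ms32 and 0 of AMS. Replicates 1 and 2 of stage 2 had 9.55 and 8.38 RPKM of Ms32 against 0.948 and 0 of AMS. Sterile libraries held at most 1 AMS read, so this order followed from the choice of libraries with Ms32 reads. Sterile replicate 1 of stage 3 had 1.02 RPKM of AMS and 0 of Ms32.

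The ratio of the AMS level to the Ms32 level within a library does not depend on the size of the library. It was 3.41 and 2.70 in fertile replicates 2 and 3 of stage 1. At stage 2 it was 10.11, 9.09 and 5.37 in fertile replicates 1, 2 and 3, above both stage 1 values. At stage 3 it was 10.004, 5.56 and 31.8, a range that included those of stage 2. The geometric means were 3.03, 7.90 and 12.1 at stages 1, 2 and 3, and an exact permutation test over the 560 assignments of the 8 libraries to the stages gave p = 0.129. Without fertile replicate 2 of stage 3, which held 2 Ms32 reads, the exact permutation test gave p = 0.0381. Fertile replicate 3 of stage 3, with the ratio of 31.8, held 1 Ms32 read. Without replicate 3 the exact permutation test gave p = 0.143. The geometric mean at stage 3 was then 7.46, below the 7.90 of stage 2. With any other single fertile library of stage 2 or 3 left out, the exact permutation test gave p = 0.114 to 0.248.

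**Figure D2:**
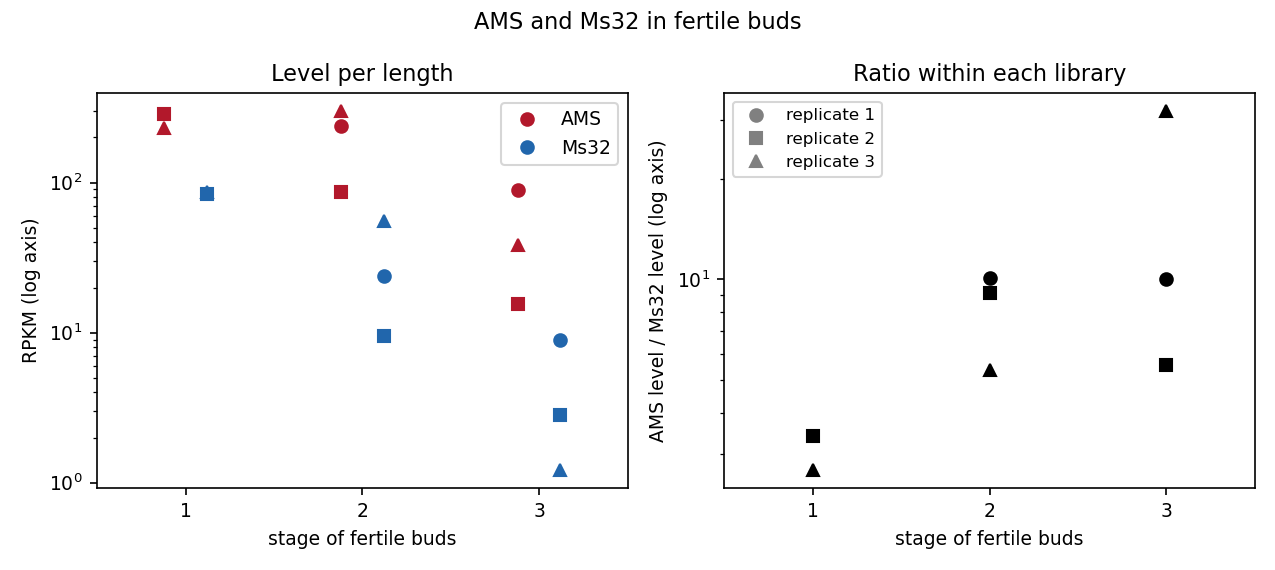
Left, RPKM of AMS (red) and Ms32 (blue) in each fertile library by stage, on a log axis; right, the ratio of the AMS level to the Ms32 level within each library, on a log axis, with symbols giving the replicate number. Both genes fall toward stage 3, and the ratio is 2.70 and 3.41 at stage 1 and at least 5.37 in all later libraries.

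Counted as a share of the reads of both genes, AMS made up 86.0% of 1912 reads in the fertile line (exact 95% binomial interval 84.3% to 87.5%) and 4.55% of 44 reads in the sterile line (0.555% to 15.5%). The share ranged from 77.3% to 97.6% over the 8 fertile libraries. It was 0% in both sterile libraries of stage 1 with reads, of 19 and 6 reads, and 11.1% and 0% in those of stage 2, of 9 reads each. A single AMS read and no Ms32 read came from sterile buds of stage 3. The share was chosen after the values were seen, and is a description with no test. Sterile libraries held at most 1 AMS read, so a low share there followed from the presence of Ms32 reads.

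**Figure D3:**
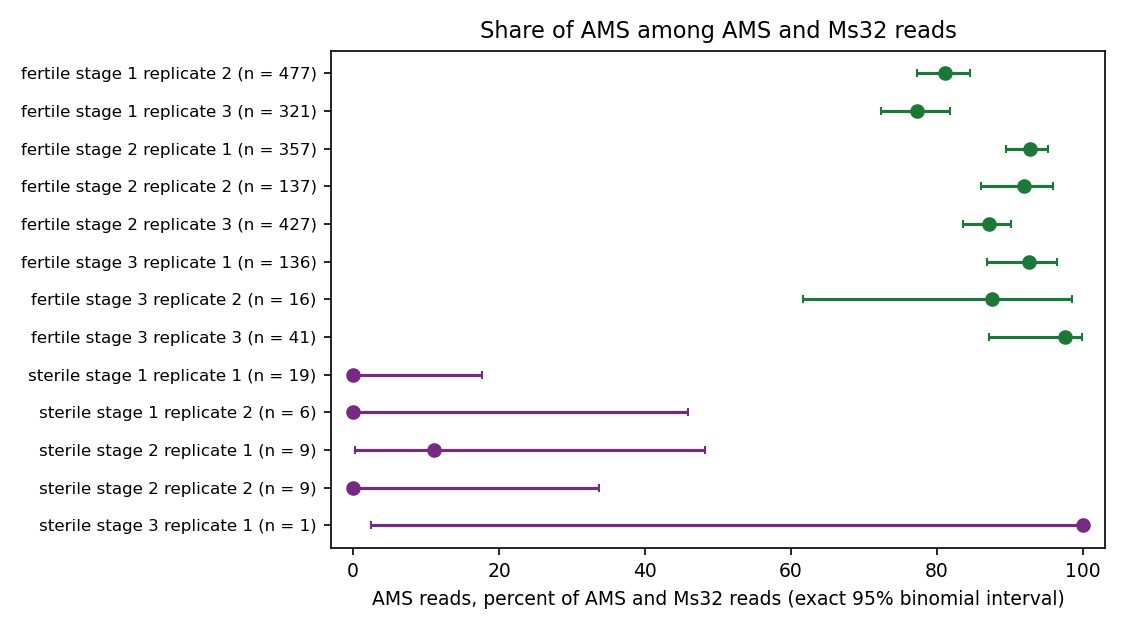
AMS reads as a percentage of the AMS and Ms32 reads of each library that held any, with exact 95% binomial intervals and the number of reads in brackets (fertile green, sterile purple). The fertile libraries lie between 77.3% and 97.6%, and the sterile libraries of stages 1 and 2 between 0% and 11.1%.

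Other genes of the anther were taken from a list chosen with earlier results of these data known. Counts of called genes in it are therefore no independent evidence. Their names were recalled from the tomato literature. The early anther regulators HYDRA, GAMYB1 (Solyc01g009070) and GAMYB2 (Solyc06g073640), the last 2 of a family of MYB genes that act in gibberellin signalling, were read in both lines. Of these 3, GAMYB1 alone passed the filter on low counts, and it was called in none of the 3 line comparisons. It stood at 9.94 ± 2.19 CPM (n = 3) in sterile and 21.6 ± 0.347 CPM (n = 2) in fertile buds of stage 1 (log2 difference -1.17, SE 0.42, edgeR adjusted p = 0.254). HYDRA held 18 sterile and 16 fertile reads at stage 1, and 17 sterile and 4 fertile reads at stage 2. At stage 2 the lowest sterile library (replicate 3) and the highest fertile library (replicate 1) held 2 reads each. HYDRA was down to 1 read in each line at stage 3. In fertile buds HYDRA was thus read mainly at stage 1, the stage of Ms10, with 9.33 and 15.1 CPM in replicates 2 and 3.

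The tapetum regulators TDF1 (Solyc03g113530), MYB80 (Solyc10g005760) and MS1 (Solyc04g008420) stood with AMS rather than with HYDRA in the sterile line. In Arabidopsis TDF1 acts before AMS and the other 2 after it. TDF1 had 1 read in the 9 sterile libraries and the other 2 had none. Of the 3, 1 was called lower at stage 1 (TDF1, at least 28.5-fold, edgeR adjusted p = 0.0363) and 0 at stages 2 and 3. Among all tested genes, 1.09%, 2.23% and 0.568% were called lower at stages 1, 2 and 3. The TDF1 call was lost without any 1 of the 3 sterile libraries of stage 1, fertile replicate 3 of stage 1, replicate 1 of either line at stage 2 or fertile replicate 1 of stage 3 (edgeR adjusted p of 0.0511 to 0.155), and without all libraries numbered 3 (edgeR adjusted p = 0.275). Their summed level in fertile buds was 42.7 and 198 CPM in replicates 2 and 3 of stage 1, and 119, 3.67 and 154 CPM in replicates 1, 2 and 3 of stage 2. Fertile replicate 2 was the low library of both stages, while Ms10 and AMS were higher in replicate 2 than in replicate 3 at stage 1. At stage 3 the summed level was at most 5.19 CPM, when AMS was still at 28.0 CPM or more.

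Tapetum products were at or near 0 in the sterile line as well. The 4 genes listed are TomA108 (Solyc01g009590), an anther protein gene, STR1 (Solyc03g053130), an aspartic proteinase gene (Solyc06g069220) and a cysteine protease gene (Solyc07g053460). Their summed level was 0 to 11.9 CPM in the 9 sterile libraries and 737 to 12779 CPM in the 8 fertile ones. At stage 3 most of the fertile sum was the cysteine protease, with a mean of 2356 CPM against 2467 CPM for the sum. The aspartic proteinase overlapped between the lines at that stage. It had 9.09 ± 7.32 CPM in fertile and 3.18 ± 4.21 CPM in sterile buds (n = 3 each). Of the 4, 3, 4 and 1 were called lower in sterile buds at stages 1, 2 and 3, where 1.09%, 2.23% and 0.568% of all tested genes were. At stage 1 the call of the aspartic proteinase was lost without sterile replicate 2 (edgeR adjusted p = 0.0539) and without all libraries numbered 3 (edgeR adjusted p = 0.144), and that of STR1 without the latter (edgeR adjusted p = 0.0609). The median log2 difference of the 4 was -10.34, -10.64 and -5.83 at these stages, against medians of 0.00, 0.03 and 0.02 over all genes tested. These medians rest on fitted values for genes with groups at or near 0 reads and are no measure of size. In fertile buds the cysteine protease had 20 reads at stage 1 (0 and 26.7 CPM in the 2 libraries), 9416 at stage 2 and 4422 at stage 3. The other products had no such rise. Mean levels at stages 1, 2 and 3 were 788, 579 and 21.8 CPM for TomA108 and 737, 556 and 79.9 CPM for STR1. The aspartic proteinase had 1169, 1156 and 9.09 CPM. Ms10 and Ms32 had their highest levels at stage 1.

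**Figure D4:**
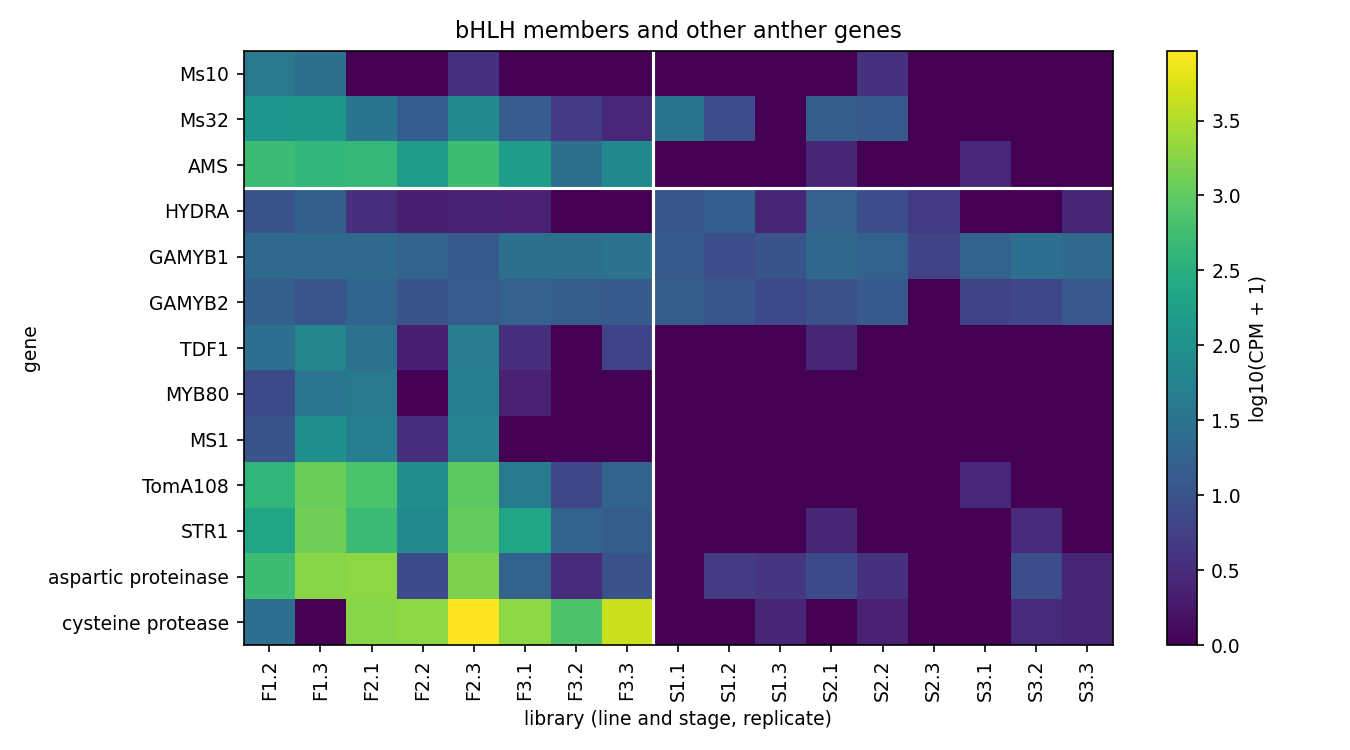
Levels of the 3 bHLH genes (above the white line) and of 10 other anther genes in each library, as log10(CPM + 1), with fertile libraries (F, left) and sterile libraries (S, right) named by stage and replicate. HYDRA, GAMYB1 and GAMYB2 have reads in both lines, and TDF1, MYB80, MS1 and the tapetum products have at most 7.96 CPM in any sterile library.

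To find genes with the most similar patterns, the CPM of each gene was divided by its sum over the 17 libraries, and the profile overlap of a pair of genes was the sum of the smaller share in each library, so that 100% means the same pattern. It was computed for the 15007 genes whose highest group averaged 10 CPM or more. The overlap of Ms32 with AMS was 72.3%, that of Ms10 with Ms32 60.1% and that of Ms10 with AMS 44.3%. The median over all genes was 19.6% with Ms10, 43.1% with Ms32 and 38.4% with AMS, and the 99th percentiles were 40.9%, 61.3% and 61.4%. Among the 10 other anther genes, TDF1 was nearest to AMS at 77.6%, nearest to Ms32 at 70.1% and nearest to Ms10 at 55.2%. Among the tapetum products, the cysteine protease stood apart, with an overlap of 4.16% with Ms10, 32.03% with Ms32 and 50.1% with AMS. TomA108, STR1 and the aspartic proteinase had overlaps above each 99th percentile. These were 44.0% to 50.7% with Ms10, 61.8% to 68.3% with Ms32 and 69.5% to 76.3% with AMS. These values describe the same libraries as the comparisons above, and they share the gap between the lines.

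**Figure D5:**
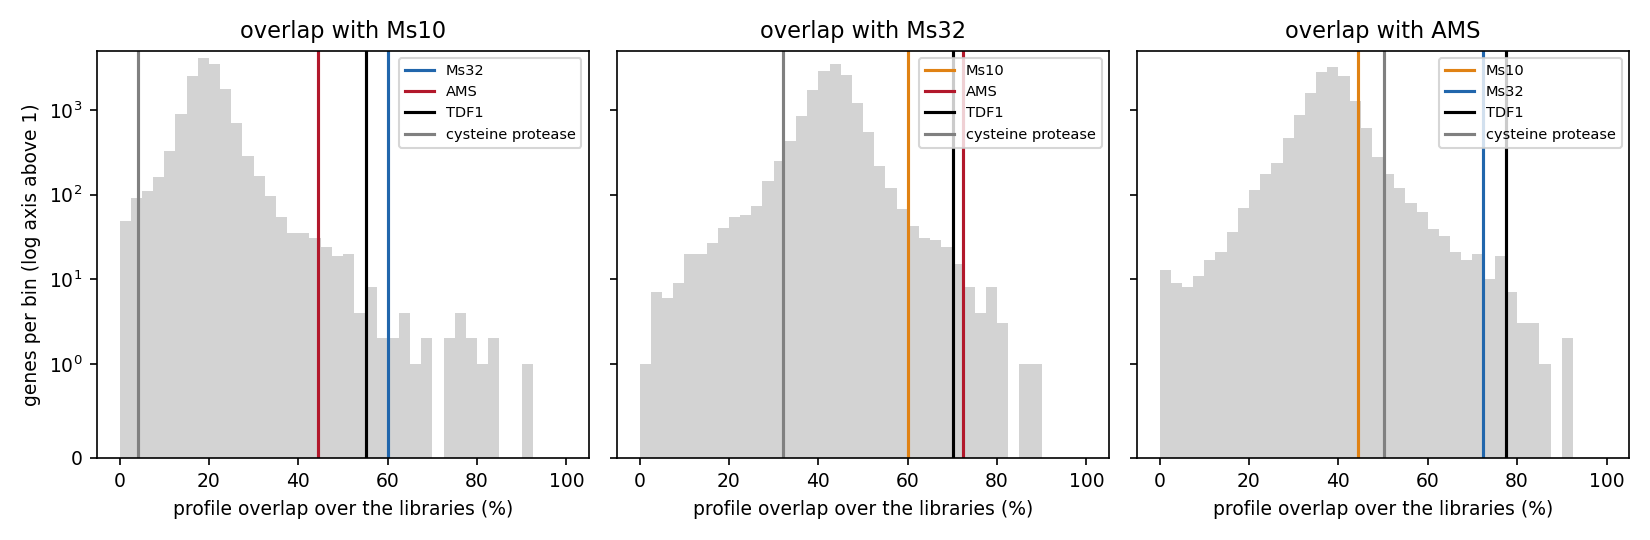
Profile overlap of 15007 genes with Ms10, Ms32 and AMS over the 17 libraries (grey, genes per bin of 2.5 percentage points, on an axis that is logarithmic above 1), with coloured lines for the other bHLH genes, TDF1 and the cysteine protease. Ms32 and AMS lie at 72.3% of each other, above the 99th percentile of all genes, and the cysteine protease lies at 4.16% with Ms10. The other tapetum products listed, not drawn, lie at 44.0% to 50.7% with Ms10.

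The gene most like Ms10 was Solyc03g119620, with an overlap of 90.3% and 69.2 CPM in fertile buds of stage 1, 0.911 CPM at stage 2 and 2.18 CPM in sterile buds of stage 1. Solyc05g025780, Solyc03g059200, Solyc08g077860 and Solyc02g062320 followed with 84.3%, 84.0%, 81.4% and 79.7%. All 5 had their highest group mean in fertile buds of stage 1, which follows from their selection by overlap with Ms10. The gene most like AMS was Solyc07g015960 at 91.2%, with 1289, 1109 and 154 CPM in fertile buds of stages 1, 2 and 3 and 2 reads in all sterile libraries. Solyc05g021390, Solyc01g098220, Solyc12g013630 and Solyc10g009390 followed with 90.9%, 85.6%, 84.9% and 83.6%, and they held between 0 and 4 sterile reads each. A low sterile share follows from the selection by overlap with AMS. The gene most like Ms32 was Solyc02g065670 at 87.8%, with 28.4, 9.59 and 2.56 CPM in fertile buds of stages 1, 2 and 3. The next 4 were Solyc12g005560 at 85.1%, Solyc03g082700 at 82.1%, Solyc07g054650 at 81.9% and Solyc07g042460 at 80.3%. These 5 held between 2 and 12 sterile reads each, against 42 for Ms32. Over group means in place of libraries, 4 of the 5 genes named for Ms10, 2 of those for AMS and 0 of those for Ms32 were again among the nearest 5.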

How the data were processed

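Floral bud RNA was extracted with TRIzol and sequenced as RNA-seq libraries, per the labels' protocols. Per the file headers, the deposited tables give counts of all reads and of unique reads per gene model, the coding length, and RPKM. The RPKM values deposited by the authors followed from the count of all reads and the length (0 values differed by more than 1e-06 of their size). Of the 34727 lengths, 34726 are multiples of 3. The sources used here do not name an aligner, a counting program or strandedness. The tables name genes by identifier only; gene names are recalled from the tomato literature.

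Counts of all reads were tested with edgeR 4.0.16 (R 4.3.3): filterByExpr with the 6 groups, TMM, 1 quasi-likelihood fit of 17 libraries with 11 residual degrees of freedom, Benjamini-Hochberg over 13568 genes, called at an adjusted p under 0.05. The SE is the log2 difference divided by the square root of F. A group with 0 reads was set to 3 reads for a bound; a group with 1 to 3 reads has its ratio and exact 95% binomial interval from the summed reads. Reads carry no molecular identifiers, so intervals cover counting error only. The labels' design text calls the samples biological replicates, and p-values measure the spread between them. Replicate pairs differed beyond sampling noise in every group. On simulated data for the stage 1 line comparison (12775 and 12772 genes, 200 changed) edgeR recovered 55% of 4-fold and 87% of 16-fold changes. The changed genes averaged at least 10 CPM, and every gene had a dispersion (squared coefficient of variation beyond counting noise) of 0.08. These rates do not carry over to genes with fewer reads or a wider spread, such as Ms10 and Ms32.

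Residuals of same-numbered libraries correlated above 0.1 in all 3 pairs of stages 2 and 3, at 0.196 to 0.318 in fertile and 0.357 to 0.476 in sterile buds, so the numbers were taken to pair the samples there. The other comparisons had a pair below 0.1 or, as fertile stages 1 and 2 (0.290 and 0.291), only 2 pairs. Alternatives were other size factors, no low-count filter, DESeq2 1.42.0, unique reads, a replicate block, only the groups compared, and libraries left out. Members and lists were chosen with earlier results of these data known. Genes named are the 3 members, the listed anther genes and markers, and the 5 genes with the largest profile overlap per member.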

Additional observations from a re-analysis of the deposited data

How the results depend on the processing

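Low read numbers limit Ms10 and Ms32 most: 3 reads are 3.67 to 6.005 CPM. All calls of the 3 genes kept their direction. Leaving out each library in turn moved the edgeR adjusted p of the stage 1 line difference between 0.0312 and 0.190 for Ms10, between 0.0464 and 0.372 for Ms32 and between 2.14e-05 and 0.00442 for AMS. At stage 3 it was 0.00284 to 0.0610 for AMS, and averaged over the stages 0.00451 to 0.110 for Ms32. From stage 1 to 3 of fertile buds it was 0.0166 to 0.099996 for Ms10, 0.0131 to 0.0956 for Ms32 and 0.00894 to 0.112 for AMS, and from stage 2 to 3 0.0375 to 0.489 for AMS. Direction turned in 2 uncalled results: AMS from stage 1 to 2 of fertile buds without fertile replicate 2 of stage 2 (0.985; 0.813 to 0.985 over all libraries left out), and Ms32 from stage 1 to 2 of sterile buds without sterile replicate 1 of stage 1 (0.915; 0.885 to 1 over all). The exact permutation p of the AMS to Ms32 ratio was 0.0381 to 0.343.

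Without all libraries numbered 3 the adjusted p was 0.162 (Ms10, line difference at stage 1), 0.0947 (AMS, line difference at stage 3), 0.156, 0.0765 and 0.208 (Ms10, Ms32 and AMS, fertile stage 3 against 1). With no low-count filter Ms10 passed from stage 1 to 2 of fertile buds (0.00531), Ms32 between the lines at stages 1 and 2 (0.00113 and 0.0311) and from stage 2 to 3 of fertile buds (0.0481), and AMS there as well (0.00306). Ms32 passed at stage 1 with only the groups compared (0.0361), and lost its fertile stage 3 against 1 call with DESeq2 (0.0765). The cause was not tested.

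A replicate block, tried in all comparisons, gave an adjusted p of 0.0220 for Ms32 between the lines at stage 1, where 1 of the 2 same-numbered pairs correlated above 0.1 (-0.0371 and 0.233), and of 0.0111 for AMS between stages 2 and 3 of fertile buds. It changed no other call of the 3 genes. Counts of called genes moved over the alternatives from 158 to between 54 and 425 at stage 1, from 384 to between 164 and 891 at stage 2, from 100 to between 13 and 305 at stage 3, from 1321 to between 837 and 1737 averaged over the stages, and from 21, 32 and 856 to between 0 and 157, 0 and 253 and 28 and 1299 in fertile stage 2 against 1, 3 against 2 and 3 against 1. In sterile buds they moved from 0 to at most 89 and 45, and in the interaction from 0 to at most 21. Of the 5 genes nearest each member, shares of log2(CPM + 1) kept 3 for Ms10, 0 for Ms32 and 1 for AMS, and a minimum of 5 CPM kept 4, 4 and 5.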
